A study of Mus musculus with 30 samples.

Results

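The comparison described here is the response of mouse liver to 1 month of a high glycemic index (HGI) diet, measured against a low glycemic index (LGI) diet, across all genes expressed in liver. Its libraries were chosen by their labels alone and are 3 HGI livers (replicates 38, 39 and 40) and 4 LGI livers (replicates 33, 34, 35 and 36), which makes 7 of the 30 libraries of the series. The series holds bulk RNA-seq of liver and retina from the same kind of mice after 1 or 12 months of feeding. Of 49398 genes in the liver count table, 11537 averaged over 1 CPM (counts scaled to a library total of 1000000) in at least 1 of the 4 liver groups and were tested.

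Every mouse was a wild-type (WT) male of the inbred C57BL/6J strain. The 1-month mice started the diet at 6 months of age and were 7 months old at collection, whereas those fed for 12 months were 24 months old. Starch was 100% amylopectin in the HGI diet, and 70% amylose with 30% amylopectin in the LGI diet. Mice were housed singly and pair-fed so that the diets were eaten in equal amounts, and each was fasted for 6 hours before liver (100 mg) was snap frozen. Female mice, chow-fed mice and separated liver cells were not part of the comparison, and the older mice belonged to another cohort, so that feeding length, age and cohort cannot be told apart.

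Amylopectin is a branched starch that is cut to glucose quickly, and amylose is a mostly unbranched starch that is cut slowly. In hepatocytes, glucose drives glycolysis and, through the transcription factors ChREBP and SREBP-1c, the enzymes that turn carbohydrate into fatty acids and triglyceride. Hepatocytes also turn cholesterol into bile acids, break down amino acids and, mostly around the central vein, oxidize drugs with cytochrome P450 enzymes. Kupffer cells, the resident macrophages of the liver, line its sinusoids.

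Totals were between 11.3 and 44.9 M estimated counts per liver, with medians of 37.8 M in LGI and 19.1 M in HGI livers, so that a gene at 1 CPM in the smallest library rested on 11.3 counts. LGI replicate 34 stood apart from the other libraries. It had the lowest TMM scaling factor (0.77, against 0.877 to 1.04 in the other 6), lay at -49.1 on the first principal component (30.9% of the variance of the 7 livers), and was the highest liver in 2931 and the lowest in 2832 of all genes tested. Counts of mitochondrially encoded mRNA made up 17.1% of this library and 11.7% to 16.9% of the others. Results are therefore also given without it. All 11 hepatocyte markers were tested and their summed level was 102000 to 128000 CPM in LGI and 107000 to 108000 CPM in HGI livers, as a hepatocyte-rich tissue gives. Photoreceptor markers were present at a low level, at a sum of 30.5 to 50.9 CPM in LGI and 9.42 to 49.2 CPM in HGI livers. Of these 14 genes, 7 were over 1 CPM and 0 were tested, because the authors' normalized table does not hold them. Of 10 T and NK cell markers, 0 reached 1 CPM.

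Values per liver are CPM scaled with TMM factors, in the order LGI 33, 34, 35, 36 and HGI 38, 39, 40, and logFC is the log2 fold change of HGI over LGI from limma-voom with its standard error (SE). A gene is said to pass the limits when its unadjusted p was below 0.05 and its fold change at least 1.5 (0.585 on the log2 scale), the limits that the study used in liver. After 1 month, 346 genes (3.00% of those tested) passed, of which 229 (1.98%) were higher and 117 (1.01%) lower in HGI livers. No gene passed after Benjamini-Hochberg adjustment in limma (0 at an adjusted p below 0.05, smallest 0.669), while 619 genes (5.37%) had an unadjusted p below 0.05. With edgeR 0 and with DESeq2 4 genes had an adjusted p below 0.05. Every gene value below therefore stands at an unadjusted p. Such a limit lets through 5% of genes on average where no gene differs.

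**Figure D1:**
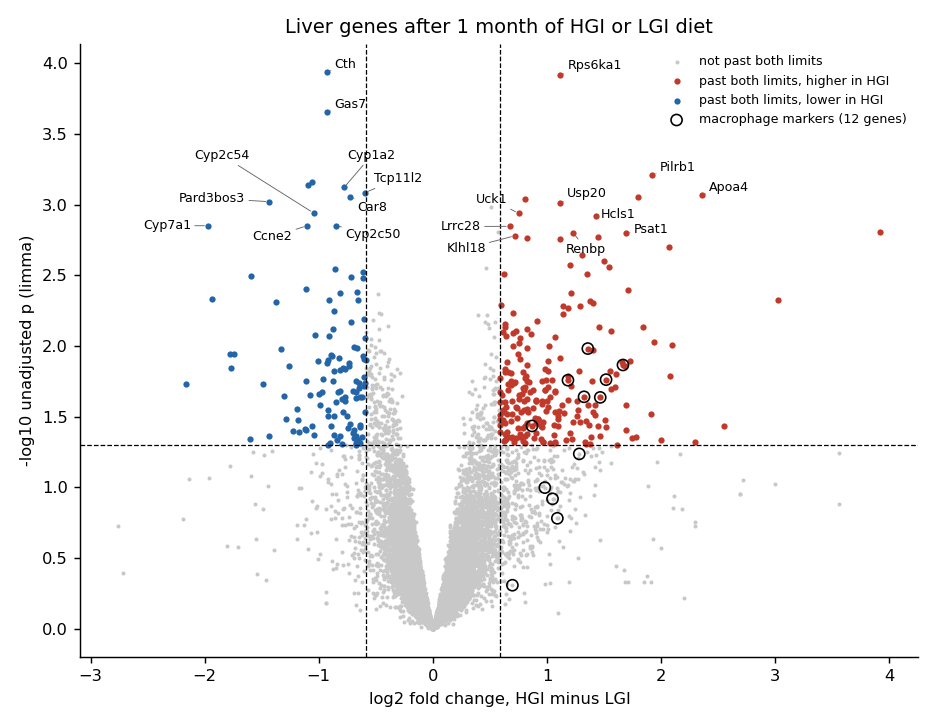
Each point is 1 of 11537 liver genes, with the log2 fold change of HGI over LGI after 1 month on the x axis and -log10 of the unadjusted limma p on the y axis. Dashed lines are the limits (p of 0.05, fold of 1.5). Named genes are the leading 10 in each direction, chosen by p among genes without overlap of the diets. All 12 circled macrophage markers lie to the right of 0.

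Genes past the limits and higher in HGI had few counts, with a median over genes of the mean level of 2.34 CPM, against 6.8 CPM for the lower genes and 10.7 CPM for all genes tested. The diets were without overlap in 113 of the 229 higher and in 62 of the 117 lower genes. Over all genes tested this separation was seen in 7.57%, with HGI above in 3.47% and below in 4.10%. Among the 229 higher genes, HGI replicate 39 was the highest liver in 120, replicate 40 in 54 and replicate 38 in 46. The lowest liver was LGI replicate 34 in 97 and LGI replicate 33 in 87 of them. Leaving out each of the 7 livers in turn kept 54 genes past the limits in every fit, 33 higher and 21 lower.

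Among the leading genes that were higher, Apoa4 (ENSMUSG00000032080) had the largest fold change. It encodes a lipid-binding apolipoprotein carried by chylomicrons and high-density lipoprotein. Its level was 36.8, 20.1, 62.4 and 45.5 CPM in LGI livers and 260.0, 132 and 210.5 CPM in HGI livers. The lowest HGI liver was thus more than 2 times the highest LGI liver (logFC 2.36, SE 0.56, p of 0.000853; 2.04 without LGI replicate 34). Psat1, an enzyme of serine synthesis, was at 1.01, 0.377, 1.30 and 0.404 CPM in LGI and 2.61, 2.21 and 2.46 CPM in HGI livers. Its HGI livers lay close together (logFC 1.70, SE 0.44, p of 0.00158). Rps6ka1, a kinase that acts below ERK, had the smallest p of the higher genes (0.000121), with 3.37, 1.85, 2.80 and 3.13 CPM in LGI and 5.59, 6.04 and 5.68 CPM in HGI livers (logFC 1.11, SE 0.21).

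A pair of the leading higher genes are genes of blood cells. Pilrb1, an activating receptor of myeloid and natural killer cells, was between 0.223 and 0.303 CPM in LGI and between 0.811 and 1.09 CPM in HGI livers (logFC 1.92, SE 0.44, p of 0.000614). Hcls1, an actin regulator of blood cells, had 0.544, 0.695, 1.80 and 0.807 CPM in LGI and 2.07, 2.59 and 2.10 CPM in HGI livers, and LGI replicate 35 came nearest to the HGI range. The remaining 5 were Usp20 (a deubiquitinase), Uck1 (a kinase of pyrimidine salvage), Lrrc28, Renbp (an epimerase of N-acetylglucosamine) and Klhl18 (an adaptor of a ubiquitin ligase). Their logFC were 1.11, 0.75, 0.67, 1.23 and 0.72, with p between 0.000969 and 0.00166. Unadjusted p stayed below 0.05 for all 10 leading higher genes in each of the 7 fits without 1 liver.

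Of the leading lower genes, Cth (ENSMUSG00000028179) had the smallest p of all genes (0.000115). It encodes cystathionine gamma-lyase, the last enzyme of the path from methionine to cysteine. Levels were 371, 569.5, 489 and 374 CPM in LGI and 271, 200.2 and 230.1 CPM in HGI livers (logFC -0.93, SE 0.18). Car8, a carbonic anhydrase relative without that activity, was at 114, 186, 130.3 and 132 CPM in LGI and 77.4, 92.2 and 82.5 CPM in HGI livers (logFC -0.72, SE 0.17, p of 0.000883). For Gas7, an actin-associated protein, the levels were 9.33, 9.91, 8.19 and 10.1 CPM and 6.31, 4.99 and 3.89 CPM (logFC -0.93, SE 0.19, p of 0.000222). The LGI livers of Gas7 differed by less than 2 CPM.

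Ccne2, the cyclin E2 of the G1/S transition, was at 1.71, 2.58, 2.03 and 1.61 CPM in LGI and 0.721, 0.788 and 1.28 CPM in HGI livers (logFC -1.10, SE 0.28, p of 0.00141). Tcp11l2 was near the limit on fold change (logFC -0.59, p of 0.000824). Pard3bos3 is a transcript named for the strand opposite Pard3b. Its logFC was -1.43 (SE 0.35, p of 0.000954). Whether strand was used in the counting is not given in the sources used here, and whether its counts include reads of Pard3b was not tested. Cyp1a2, Cyp2c54, Cyp2c50 and Cyp7a1 complete the 10 leading lower genes and are described with their pathways.

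**Figure D2:**
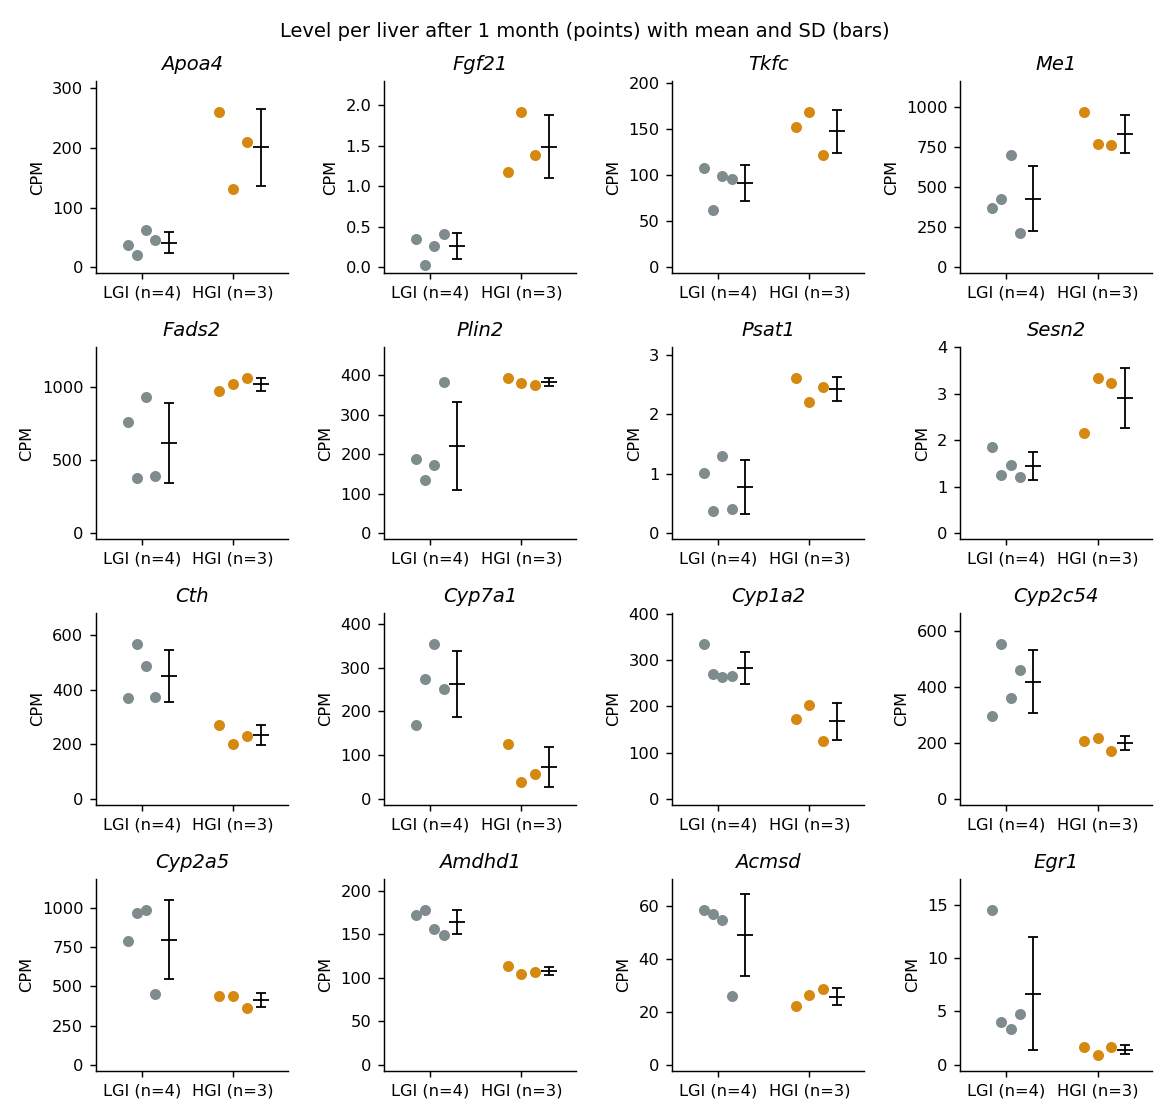
Level in each liver, in TMM-scaled CPM from 0 on a linear axis, of 16 genes described in the text, with 4 LGI livers in grey and 3 HGI livers in orange. Bars give the mean and SD, and in Plin2, Cyp2a5, Acmsd and Egr1 a single LGI liver lies far from the other 3.

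Cytochrome P450 enzymes of drug metabolism were the pathway list with the most members below the p limit. Of 45 genes listed, 40 were tested, 28 of them lower and 12 higher in HGI, with a median logFC of -0.29 beside 0.0099 (51.4% positive) over all genes tested. An unadjusted p below 0.05 was found in 13 lower and 0 higher members, where 2.55% of all genes were lower and 2.82% higher at that p. In 12 of the 40, every HGI liver lay below every LGI liver, against 4.10% of all genes. Past both limits were 5 members (1.01% of all genes were lower past both limits), namely Cyp1a2, Cyp2c54, Cyp2c50, Cyp2c29 and Cyp2a5.

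Cyp1a2, which oxidizes caffeine and aromatic amines, was at 335, 270.5, 263 and 266 CPM in LGI and 174, 204 and 126 CPM in HGI livers (logFC -0.78, SE 0.18, p of 0.000756). LGI replicate 33 was the highest and HGI replicate 40 the lowest. Levels of Cyp2c54 were 296, 554, 362 and 462 CPM and 208, 219 and 171 CPM (logFC -1.04, SE 0.26, p of 0.00115). Those of Cyp2c50 were 821, 1280, 838 and 1149 CPM and 599, 585 and 496 CPM (logFC -0.85, SE 0.22, p of 0.00141). In both genes LGI replicates 34 and 36 were highest, and the HGI livers lay within a narrow band below the LGI range. For Cyp2c29 the levels were 784, 1170, 942 and 1170 CPM and 582, 643 and 609.9 CPM (logFC -0.72, SE 0.21, p of 0.00328). Cyp2a5, which oxidizes coumarin and nicotine, was at 788, 971, 991 and 449.8 CPM and 437, 437 and 362 CPM (logFC -0.88, SE 0.31, p of 0.0118). LGI replicate 36 was close to the HGI livers in this gene and far below the other 3.

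Cyp2e1, the ethanol-inducible P450, did not reach a fold of 1.5 (logFC -0.50, SE 0.17, p of 0.0101). Its means were 9791 ± 1398 CPM (SD, n = 4) in LGI and 6890 ± 729 CPM (SD, n = 3) in HGI livers. Cyp3a11, the main P450 induced by the receptor PXR, was spread from 968 to 1978 CPM in LGI and from 749 to 1260 CPM in HGI livers and overlapped (logFC -0.28, SE 0.35, p of 0.438). Without LGI replicate 34, 10 members were lower at p below 0.05, 5 passed both limits, and the median was -0.225. P450 paralogs share sequence, so that the assignment of reads is uncertain. Of windows of the read length (101 bases) in their transcripts, 7.41% in Cyp2c54, 5.22% in Cyp2c50, 1.33% in Cyp2c29, 11.8% in Cyp2a5 and 1.94% in Cyp1a2 also occur in another gene.

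The proximal promoters of 3 of these P450 genes were in the RefSeq table for assembly GRCm38.p6 and are shown because these genes were lower together. Each is the 250 bases before the annotated start, 5′ to 3′ on the strand of the gene, at chr9:57683656-57683905 (minus strand) for Cyp1a2, at chr19:39286835-39287084 (plus strand) for Cyp2c29 and at chr19:40089429-40089678 (plus strand) for Cyp2c50. These coordinates are of another build than the GRCm39 annotation of the counts. Capitals mark matches to the TATA box letters TATAAA, searched on both strands together with the HNF4 motif letters CAAAGTCCA, which do not overlap them.
Cyp1a2: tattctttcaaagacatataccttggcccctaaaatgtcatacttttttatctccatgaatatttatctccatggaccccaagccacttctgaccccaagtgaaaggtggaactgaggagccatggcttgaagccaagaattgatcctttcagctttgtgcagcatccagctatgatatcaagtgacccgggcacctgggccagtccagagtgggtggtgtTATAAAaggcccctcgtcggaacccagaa
Cyp2c29: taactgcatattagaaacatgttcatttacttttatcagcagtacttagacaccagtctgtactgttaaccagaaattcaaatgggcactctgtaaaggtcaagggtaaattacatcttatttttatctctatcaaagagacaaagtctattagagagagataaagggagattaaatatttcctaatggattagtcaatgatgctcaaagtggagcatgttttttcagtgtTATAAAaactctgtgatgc
Cyp2c50: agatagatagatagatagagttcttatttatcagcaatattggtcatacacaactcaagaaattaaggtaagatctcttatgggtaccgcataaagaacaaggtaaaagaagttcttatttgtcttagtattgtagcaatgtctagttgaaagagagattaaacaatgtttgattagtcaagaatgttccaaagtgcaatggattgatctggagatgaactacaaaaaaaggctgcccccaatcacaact
The TATA box letters began 29 bases before the start in Cyp1a2 and 19 bases before it in Cyp2c29, and were not found in the Cyp2c50 window. They occur in 12.4% of 32851 windows of the same length, and the HNF4 letters, found in 0 of the 3 windows, in 0.384%. The Cyp2c29 and Cyp2c50 windows were identical at 152 of 228 aligned bases, and 44 further positions were gaps.

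Bile acid synthesis (15 of 15 genes tested) had 12 lower and 3 higher members, with a median logFC of -0.19. Past the limits as lower were 2 members, against 1.01% of all genes. Cyp7a1 (ENSMUSG00000028240), the rate-limiting enzyme of the classical route, was at 169, 274, 354 and 251 CPM in LGI and 125, 39.2 and 56.2 CPM in HGI livers. HGI replicate 38 was nearest to the LGI range and replicate 39 lowest (logFC -1.97, SE 0.50, p of 0.00141, -1.94 without LGI replicate 34). Cyp7b1, of the alternative route, was at 671, 642, 164 and 549.5 CPM in LGI and 229, 299.6 and 209.9 CPM in HGI livers. LGI replicate 35 lay below every HGI liver, and p was over 0.05 in 5 of the 7 fits without 1 liver (logFC -0.87, SE 0.39, p of 0.0429). Cyp8b1, which sets the share of cholic acid, had a logFC of 0.25 (SE 0.39, p of 0.534), and Cyp27a1, which opens the alternative route, of -0.14 (SE 0.19, p of 0.481).

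Of 18 genes of bile acid transport and feedback, 17 were tested and 0 passed the limits (median -0.03). Nr0b2 (SHP), the repressor of Cyp7a1 downstream of the bile acid receptor, was at 3.76, 1.51, 2.37 and 3.83 CPM in LGI and 2.79, 5.63 and 4.81 CPM in HGI livers, with HGI replicate 38 inside the LGI range (logFC 0.81, SE 0.39, p of 0.0571). Abcb11, the bile salt export pump, overlapped (logFC -0.15, p of 0.402).

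Genes of fructose metabolism and the carbohydrate response through ChREBP were higher in 12 of 14 tested members (of 15 listed), with a median logFC of 0.36. Past the limits were 4 of them (1.98% of all genes were higher past the limits), and in 5 the HGI livers all lay above the LGI range (3.47% of all genes). Fgf21, a hormone secreted by liver in response to sugar and to fasting, was at 0.346, 0.0290, 0.267 and 0.404 CPM in LGI and 1.17, 1.92 and 1.38 CPM in HGI livers. Each HGI liver was above 1 CPM and no LGI liver was above 0.404 CPM (fitted logFC 3.02, SE 0.91, p of 0.0047), and the fit depended on LGI replicate 34, which had the lowest level (2.18 without it). Tkfc, the triokinase of fructose breakdown, was at 108, 62.2, 99.1 and 95.9 CPM and 152, 168 and 121 CPM, without overlap (logFC 0.71, SE 0.22, p of 0.00584). Khk, which starts fructose breakdown, was at 78.4, 36.6, 89.9 and 58.7 CPM and 109.9, 126 and 83.5 CPM, with overlap (logFC 0.75, SE 0.33, p of 0.0378). Tkt, the transketolase of the pentose phosphate pathway, was at a logFC of 0.62 (SE 0.28, p of 0.0467). Without LGI replicate 34 only 1 of the 4 (Fgf21) kept both limits. Txnip, a glucose-induced target of ChREBP, did not overlap between the diets but did not pass (logFC 0.39, p of 0.222).

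In glucose uptake and glycolysis (24 of 25 genes tested), 22 were higher and 2 lower, with a median of 0.24. Without LGI replicate 34 the median was 0.123 and 0 members passed. Gpi1, the isomerase of the second step, was the 1 member past the limits (60.0, 29.2, 62.1 and 43.6 CPM in LGI and 82.1, 86.8 and 68.4 CPM in HGI livers, logFC 0.75, p of 0.00946), and its logFC was 0.52 without LGI replicate 34. Pklr, the liver pyruvate kinase, was at 163, 119, 191 and 126 CPM and 263, 233 and 201 CPM, above the LGI range in each HGI liver but not past the p limit (logFC 0.65, SE 0.31, p of 0.0521). In gluconeogenesis (15 tested) 0 members passed and the median was -0.06. There, the glucose-6-phosphatase gene G6pc was at 116, 204, 134 and 174 CPM and 289, 266 and 423 CPM (logFC 1.05, SE 0.53, p of 0.0649), and Pck1 overlapped (logFC -0.05, p of 0.848). Glycogen metabolism (16 tested) had a median of 0.035 with 0 past the limits, and insulin signaling (18 tested) of -0.23 with 0.

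De novo lipogenesis was higher in 20 of 22 members (median logFC 0.53), of which 2 passed the limits (1.98% of all genes were higher past the limits). Without LGI replicate 34 the median was 0.461 and 1 member passed. Me1, the malic enzyme that supplies NADPH, was at 371, 426, 700.0 and 214 CPM in LGI and 969, 768 and 762 CPM in HGI livers. All HGI livers were above the LGI range, and LGI replicate 35 came nearest to them (logFC 1.10, SE 0.46, p of 0.0315). That p was over 0.05 in 4 of the 7 fits without 1 liver. Fads2, the delta-6 desaturase of polyunsaturated fatty acids, was at 759.5, 379.9, 933 and 394 CPM and 971, 1020 and 1062 CPM. LGI replicates 34 and 36 were far below replicates 33 and 35 (logFC 0.84, SE 0.32, p of 0.018, 0.0585 without LGI replicate 34). Acly, Acaca and Thrsp, which supply acetyl-CoA, carboxylate it and respond to carbohydrate feeding, had logFC of 0.51, 0.73 and 0.53 with SE of 0.56, 0.41 and 0.69 and did not pass. In each of these 3 genes LGI replicate 35 was the highest LGI liver. In Acly (524 CPM) and Thrsp (271 CPM) it was also above every HGI liver. The mean level of the whole list was highest in the same liver, at a mean log2 CPM of 7.586, against 7.12 to 7.384 in HGI livers.

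Among genes of lipid droplets and triglyceride synthesis (27 of 30 tested), 24 were higher in HGI and 3 lower, with a median of 0.40. Past the limits as higher were 2 of them, against 1.98% of all genes. Plin2, the droplet coat protein of hepatocytes, was at 188, 135, 173 and 384 CPM in LGI and 393, 379.8 and 374 CPM in HGI livers. LGI replicate 36 was as high as the HGI livers and the other 3 lay between 135 and 188 CPM (logFC 0.90, SE 0.36, p of 0.0243). Cidec, which fuses droplets, was at 0.965, 0.666, 2.96 and 1.31 CPM and 12.2, 2.10 and 4.50 CPM, with HGI replicate 38 far above the rest (logFC 1.78, SE 0.81, p of 0.0437). Neither passed the p limit without LGI replicate 34 (p of 0.0779 and 0.127), and the list's median was then 0.33.

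Fatty acid oxidation and carnitine genes (32 tested) had 24 higher members and a median of 0.14 (0.084 without LGI replicate 34). Past the limits as higher were 2 members, against 1.98% of all genes. Cyp4a14, an omega-hydroxylase induced by PPARα, was at 73.9, 49.1, 184 and 317 CPM in LGI and 417, 238 and 683 CPM in HGI livers. LGI replicate 36 lay within the HGI range (logFC 1.75, SE 0.80, p of 0.045). Crat, the carnitine acetyltransferase, also overlapped through LGI replicate 36 (logFC 1.07, p of 0.0482), and neither gene passed without LGI replicate 34 (p of 0.134 and 0.149). Cpt1a, which commits fatty acids to mitochondria, had a logFC of 0.13 (p of 0.366). Ketone body synthesis was higher in 7 of 7 members with a median of 0.25 (0.153 without LGI replicate 34), and 0 passed. The mean level of both lists was highest in LGI replicate 36, above every HGI liver. Its mean log2 CPM was 7.208 for oxidation and 6.834 for ketone body synthesis, against at most 7.024 and 6.671 in HGI livers. Fatty acid uptake and binding (16 tested, median 0.265) also had 0 past the limits.

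Among 16 apolipoproteins the median was -0.03, 7 were higher and 9 lower, and Apoa4 was the 1 member past the limits. Apoa5, next to Apoa4 in the same gene cluster, was at 288, 186, 301 and 255 CPM in LGI and 324, 391 and 391 CPM in HGI livers, without overlap (logFC 0.53, SE 0.30, p of 0.0958). For Apob, the structural protein of very-low-density lipoprotein, the logFC was -0.18 (SE 0.22, p of 0.421). Of 19 tested genes of lipoprotein assembly, lipolysis and uptake (20 listed, median -0.02), Lipg, the endothelial lipase, passed (7.40, 10.5, 19.8 and 19.2 CPM in LGI, 17.7, 22.1 and 31.8 CPM in HGI, logFC 0.91, p of 0.0352, 0.0849 without LGI replicate 34). Cholesterol synthesis was lower in 19 of 23 members (median -0.15, or 0.065 without LGI replicate 35) with 0 past the limits.

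Amino acid breakdown was lower in 24 of 33 tested genes (34 listed), with a median logFC of -0.20. A p below 0.05 was found in 8 lower and 0 higher members, 2 of them past both limits, where 2.55% of all genes were lower at that p and 1.01% past both limits. In 8 members, against 4.10% of all genes, every HGI liver was below every LGI liver. Amdhd1, of histidine breakdown, was at 172, 178, 156 and 149 CPM in LGI and 113, 104 and 107 CPM in HGI livers, and every HGI liver was below every LGI liver (logFC -0.59, SE 0.20, p of 0.00873). Hal, the first enzyme of the same path, was at 264, 295, 323 and 288 CPM and 186, 212 and 205 CPM, and fell short of the limit on fold (logFC -0.54, SE 0.18, p of 0.00982). Acmsd, which steers tryptophan away from NAD synthesis, was at 58.6, 56.9, 54.6 and 25.8 CPM and 22.2, 26.4 and 28.7 CPM. LGI replicate 36 lay among the HGI livers (logFC -0.87, SE 0.27, p of 0.00568). Further members lower at p below 0.05 included Dbt (-0.52), Aass (-0.42), Ivd (-0.41) and Bckdhb (-0.35), which break down branched-chain amino acids and lysine. Without LGI replicate 34, 7 members were lower at that p and the median was -0.25.

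In the methionine cycle and transsulfuration (19 tested, median -0.07), Cth was the 1 member past the limits. Bhmt, which remethylates homocysteine with betaine, had no overlap between the diets but a wide spread in LGI, from 2330 to 4561 CPM (logFC -0.67, SE 0.44, p of 0.15). Cbs, the enzyme before Cth, had a logFC of 0.14 (SE 0.28, p of 0.622). In the urea cycle and ammonia list (15 tested, median -0.23), Cps1, the first enzyme of the cycle, was lower without overlap but short of 1.5-fold (logFC -0.53, SE 0.20, p of 0.02), and Rhbg, an ammonium transporter, passed as higher at about 1 CPM (logFC 0.79, p of 0.047). Glutathione and antioxidant genes (23 of 24 tested) had a median of -0.002, with Gsta4, a glutathione transferase for lipid aldehydes, past the limits (logFC -0.60, SE 0.22, p of 0.0164).

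Endoplasmic reticulum and integrated stress genes (30 of 35 tested) had a median of -0.002, with 15 higher and 15 lower. The 3 members past the limits were all higher, where 1.98% of all genes were higher past the limits. Whether these 3 share a regulator was not tested. The members were Psat1 (given above), Sesn2 and Mthfd2. Sesn2, an inhibitor of mTORC1, was at 1.86, 1.25, 1.47 and 1.21 CPM in LGI and 2.16, 3.34 and 3.23 CPM in HGI livers (logFC 1.01, SE 0.36, p of 0.0128). Mthfd2, of mitochondrial folate metabolism, passed with overlap, since HGI replicate 39 lay below LGI replicate 33 (logFC 1.07, SE 0.44, p of 0.0293). For Mthfd2, p was over 0.05 in 4 of the 7 fits without 1 liver (0.0809 without LGI replicate 34). Atf4 had a logFC of -0.03 (SE 0.26) and the chaperone Hspa5 of 0.03 (SE 0.16).

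**Figure D3:**
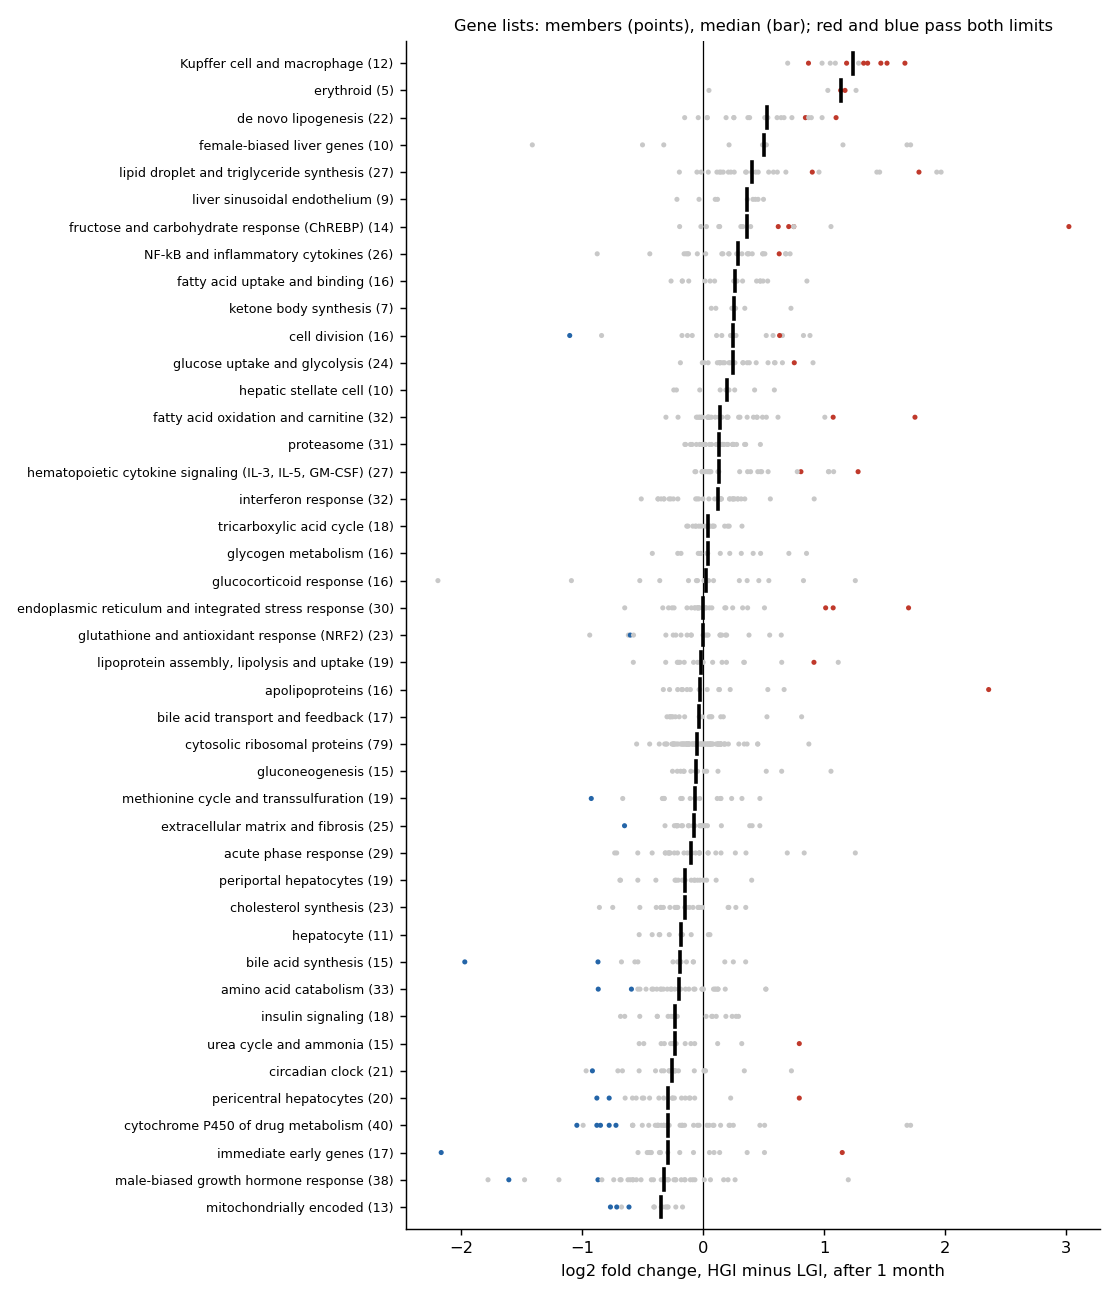
Log2 fold change of HGI over LGI after 1 month for every tested member (points) of each gene list with at least 5 tested genes, the number tested in parentheses, and the median of the list (black bar). Red and blue points pass both limits, and the lists run from the macrophage markers (median 1.23) at the top to the mitochondrially encoded genes (median -0.35) at the bottom.

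Macrophage markers had the largest median of all lists. All 12 Kupffer cell and macrophage markers were tested and higher in HGI, with a median logFC of 1.23, and 7 passed the limits, against 1.98% of all genes that were higher and passed. Clec4f, a lectin found on Kupffer cells alone in mouse liver, was at 4.26, 5.01, 10.9 and 6.46 CPM in LGI and 6.67, 37.0 and 22.6 CPM in HGI livers (logFC 1.67, SE 0.59, p of 0.0136). HGI replicate 38 lay within the LGI range, and replicates 39 and 40 lay above all LGI livers. Csf1r, the receptor for macrophage colony-stimulating factor, showed the same order, at 2.28, 2.98, 6.59 and 4.54 CPM and 4.06, 18.2 and 10.8 CPM (logFC 1.52, SE 0.56, p of 0.0173). Lyz2, the lysozyme of myeloid cells, was at 10.3, 12.9, 23.0 and 18.1 CPM and 16.1, 61.4 and 36.6 CPM (logFC 1.18, SE 0.44, p of 0.0174). Cd68 and the complement genes C1qa, C1qb and C1qc passed with logFC of 1.36, 1.47, 1.32 and 0.87. Vsig4, Cd5l, Adgre1, Timd4 and Marco had logFC of 1.28, 0.98, 1.05, 1.09 and 0.70 and did not pass. In 0 of the 12 were the diets without overlap.

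The summed level of the 12 markers was 38.2, 60.0, 98.2 and 75.3 CPM in LGI livers and 61.7, 255 and 150 CPM in HGI livers. It therefore differed more than 4-fold among the HGI livers themselves. Without HGI replicate 39 the median logFC was 0.72 and 0 of the 12 had a p below 0.05, and without LGI replicate 34 it was 1.23 with 5 past the limits. In bulk tissue, more macrophages and more RNA per macrophage cannot be told apart.

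**Figure D4:**
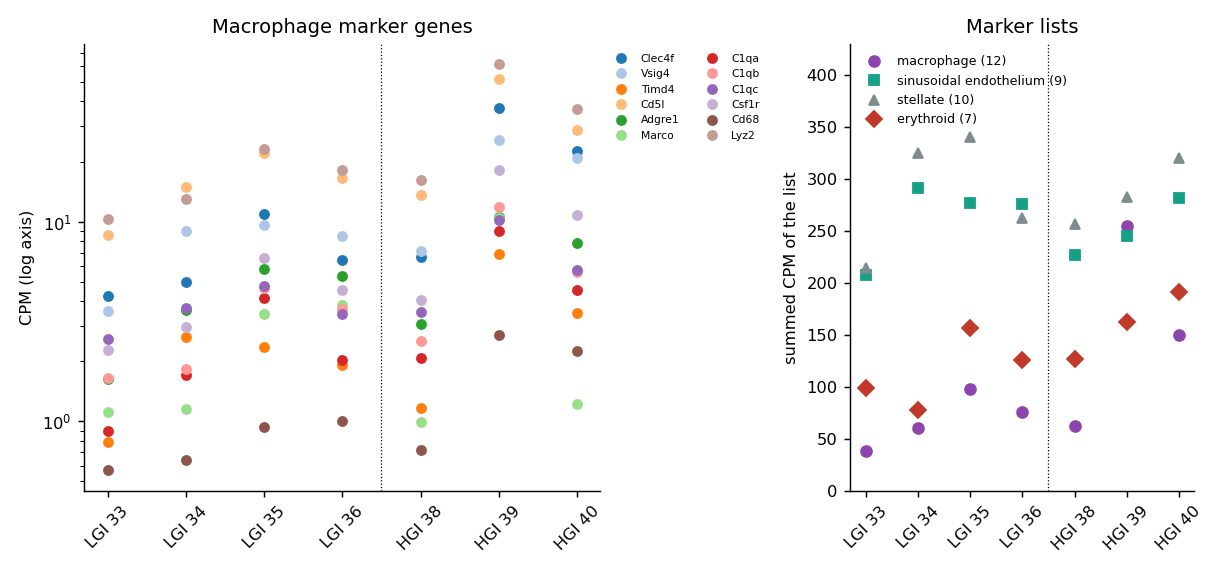
Left, level of each of 12 macrophage markers in CPM (log axis) in each of the 7 livers. Right, summed CPM of 4 marker lists (linear axis from 0). Livers are in label order, split by diet at the dotted line, and HGI replicates 39 and 40 are highest for the macrophage sum (255 and 150 CPM) while replicate 38 (61.7 CPM) is within the LGI range.

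Further genes of myeloid cells and antigen presentation were among the 346, chosen here after their values were seen. Cd14, the lipopolysaccharide co-receptor, was at 0.223, 0.348, 0.5 and 0.303 CPM in LGI and 0.541, 1.16 and 0.973 CPM in HGI livers, all above the LGI range (logFC 1.45, SE 0.38, p of 0.0017). Folr2, a folate receptor of resident macrophages, was at 0.569, 1.30, 1.07 and 0.606 CPM and 1.98, 4.77 and 2.56 CPM, also without overlap (logFC 1.84, SE 0.59, p of 0.00731). HGI replicate 38 was the lowest HGI liver in both. The Fc receptor Fcgr3 (1.71), its adaptor relative Tyrobp (1.56), the costimulator Cd86 (1.69) and the class II genes H2-Aa (1.02), H2-Eb1 (1.07) and Cd74 (1.29) passed with overlap, since HGI replicate 38 lay within the LGI range in each.

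Signaling lists of immune cells had smaller medians than the macrophage markers. In the list for GM-CSF and its relatives interleukin-3 and interleukin-5, 27 of 31 genes were tested, 21 were higher and the median was 0.13. As higher, 2 members passed, against 1.98% of all genes. Of these, Csf2rb, the shared receptor subunit, was at 1.68, 1.85, 2.96 and 3.43 CPM in LGI and 3.61, 4.13 and 3.74 CPM in HGI livers (logFC 0.81, p of 0.0434, 0.0987 without LGI replicate 34). Of 26 tested genes of NF-kB and inflammatory cytokines (30 listed), 19 were higher, with a median of 0.28 that was 0.14 without LGI replicate 34 and 0.177 without HGI replicate 39. Of them, Rela, a subunit of NF-kB, passed (11, 5.85, 9.46 and 8.58 CPM in LGI, 13, 13.8 and 12.6 CPM in HGI, logFC 0.63, p of 0.0294; p of 0.111 without LGI replicate 34). Nfkbia, its inhibitor and target, overlapped (logFC -0.05, p of 0.813). Acute phase genes (29 tested) had a median of -0.10 with 0 past the limits, and Saa1, the marker of acute inflammation, had a logFC of 0.10 (SE 0.37). Interferon response genes (32 of 36 tested) had a median of 0.12, which was -0.089 without LGI replicate 34, with 0 past the limits.

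Other cell types were read from their marker lists. Hemoglobin genes were higher in HGI. Of 7 erythroid markers 5 were tested and higher (median 1.135, or 0.752 without LGI replicate 34), and Hba-a2 (13.1, 8.95, 40.4 and 25.5 CPM in LGI, 27.5, 39.8 and 55.4 CPM in HGI, logFC 1.14, p of 0.026) and Hbb-bt (logFC 1.17, p of 0.0465) passed, with overlap, but not without LGI replicate 34 (p of 0.105 and 0.179). Of all genes, 1.98% were higher past the limits. The summed level of the erythroid list was 77.5 to 157 CPM in LGI and 127 to 191 CPM in HGI livers. Of read-length windows, 79.3% in Hba-a2 and 54.7% in Hbb-bt occur in another gene. Sinusoidal endothelial markers summed to 208 to 291 CPM in LGI and 227 to 282 CPM in HGI livers (9 tested, median logFC 0.36, or -0.023 without LGI replicate 33, 0 past the limits). Stellate cell markers summed to 214 to 340 and 257 to 320 CPM (10 tested, median 0.19, or -0.041 without LGI replicate 33, 0 past the limits). Lists with fewer than 5 tested genes were at sums that overlapped between diets, namely cholangiocytes (3 tested, 1 marker at 0 in all livers), B and plasma cells (4), neutrophils (3, Ly6g and Mpo at 0), adipocytes (2, Lep and Retn at 0) and pancreatic acinar cells (1, 7 markers at 0). The part of blood and macrophage RNA in other values was not tested.

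By position in the lobule, of 20 genes of pericentral hepatocytes, 18 were lower (median -0.29), with Cyp1a2 and Cyp2a5 past the limits as lower and Rhbg as higher. Glul, the glutamine synthetase of the last cells before the central vein, had a logFC of -0.07 (SE 0.19) and the Wnt receptor Lgr5 of -0.15 (SE 0.36), and neither passed. Periportal genes (19 of 20 tested) had a median of -0.15 and 0 past the limits. The list of male-biased genes and genes of the growth hormone response was lower in 32 of 38 (median -0.32). Past the limits as lower were 2 members, against 1.01% of all genes. Its mean level in LGI replicate 35 (mean log2 CPM of 7.808) was below that of every HGI liver (7.853 to 8.351). The list holds several related Mup genes, so that its members are not all separate measurements. Mup1, a major urinary protein, was at 2126, 3095, 395 and 2911 CPM in LGI and 561, 1057 and 283 CPM in HGI livers. LGI replicate 35 was lower than HGI replicates 38 and 39 (logFC -1.61, SE 0.73, p of 0.0452), and 55.6% of its read-length windows occur in other genes, so that its level is uncertain. The other was Cyp7b1, given above. Without LGI replicate 34 neither passed (p of 0.118 for Mup1 and 0.116 for Cyp7b1), 1 member was lower at p below 0.05 in place of 4, and the median was -0.25. With all livers, 2.55% of all genes were lower at that p. For Mup1, p was over 0.05 in 5 of the 7 fits without 1 liver. Female-biased genes (10 of 20 tested) had 0 past the limits and a median of 0.50, which was -0.18 with DESeq2, -0.083 with edgeR and -0.20 without LGI replicate 33.

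Mitochondrially encoded genes were lower in 13 of 13 (median -0.35), and their share of all counts was 12.8% to 17.1% in LGI and 11.7% to 14.9% in HGI livers. The mean log2 CPM of the list overlapped, at 12.0 to 12.8 in LGI and 11.7 to 12.2 in HGI livers. Whether the 13 are separate measurements was not tested. Of all genes, 1.01% were lower past the limits. Past the limits were mt-Co3, mt-Nd3 and mt-Co2, of complexes IV and I, with logFC of -0.61, -0.72 and -0.77 (SE 0.17, 0.23 and 0.31). In mt-Co3 the diets did not overlap, in mt-Nd3 HGI replicate 38 was just above LGI replicate 33, and in mt-Co2 LGI replicate 36 stood at 5163 CPM against at most 2877 CPM in the other livers. Without LGI replicate 34 the median was -0.21. Tricarboxylic acid cycle genes, encoded in the nucleus, had a median of 0.04 (18 tested, 0 past the limits).

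Clock genes were lower in 16 of 21 tested (22 listed, median -0.26), and Usp2, a clock-driven deubiquitinase, passed (35.5, 29.6, 42.9 and 16.1 CPM in LGI, 9.82, 21.7 and 16.5 CPM in HGI, logFC -0.92, SE 0.32, p of 0.0125). Arntl, Per2, Nr1d1 and Dbp, core parts and outputs of the clock, overlapped and did not pass (logFC 0.73, -0.23, -0.07 and -0.24). Cirbp and Rbm3, RNA-binding proteins induced by cold, were both lower past the limits (logFC -0.81 and -0.62, chosen after their values were seen). Glucocorticoid response genes (16 tested) had a median of 0.025 with 0 past the limits. Immediate early genes were lower in 11 of 17 tested (24 listed, median -0.29), where Egr1 was at 14.6, 4.00, 3.36 and 4.74 CPM in LGI and 1.62, 0.901 and 1.64 CPM in HGI livers (logFC -2.17, SE 0.82, p of 0.0186) and Nr4a2 was higher (logFC 1.15, p of 0.0295). The median of that list was -0.007 without LGI replicate 34 and 0.018 without HGI replicate 39.

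Extracellular matrix genes (25 of 29 tested, median -0.07) had 1 member past the limits, Lum, a collagen-binding proteoglycan (logFC -0.65, p of 0.0199, 0.0613 without LGI replicate 34). Cell division genes (16 of 27 tested, median 0.245) had Ccne2 lower and Mcm3, a subunit of the replication helicase, higher past the limits (logFC 0.63, p of 0.035, 0.111 without LGI replicate 34), and the proliferation marker Mki67 ranged from 0.223 to 1.22 CPM in LGI and from 0.488 to 3.23 CPM in HGI livers. Proteasome (31 tested, median 0.13, or 0.071 without LGI replicate 34) and cytosolic ribosomal protein genes (79 tested, median -0.05) each had 0 past the limits.

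The same contrast in the livers of the 12-month cohort was used to ask which 1-month differences depended on feeding length, age or cohort. That comparison shares no animals with this one, and 848 genes (7.35%) passed the limits in it, of which 667 (5.78%) were higher and 181 (1.57%) lower. At a p below 0.05 alone, 6.91% of genes were higher and 4.01% lower. The interaction, which is the logFC after 1 month minus that after 12 months, passed the same limits in 406 genes (3.52%) with 0 at an adjusted p below 0.05 (smallest 0.549, limma), and 460 genes (3.99%) had an unadjusted p below 0.05. Genes were named on their 1-month values, so that smaller 12-month values are to be read with that choice in mind.

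Cyp7a1 passed the limits as lower after 1 month and had a logFC near 0 after 12 (logFC -1.97 and 0.12, 12-month p of 0.807, interaction p of 0.00975). Gas7 was lower after 1 month and higher after 12 (logFC -0.93 and 0.83, interaction p of 4.76e-05), and Lrrc28 was higher after 1 and lower after 12 (logFC 0.67 and -0.56, interaction p of 0.000121). An interaction p below 0.05 was also found for, among others, Tkfc, Sesn2, Mthfd2, Cyp4a14, Amdhd1, Hal and mt-Nd3 (interaction p of 0.0334, 0.027, 0.0382, 0.0403, 0.0295, 0.0311 and 0.00972). Their 12-month logFC were -0.02, -0.18, -0.60, -0.83, 0.07, 0.07 and 0.23. Each had the opposite sign to the 1-month value, but the 12-month p was between 0.314 and 0.928 (limma), so a reversal is not shown for them. Cirbp and Rbm3 also differed (12-month logFC 0.70 and 0.48, interaction p of 0.00328 and 0.0056).

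In the P450 genes the 12-month logFC were close to those after 1 month. They were -0.84 for Cyp1a2, -1.02 for Cyp2c54, -0.79 for Cyp2c50, -0.62 for Cyp2c29 and -1.01 for Cyp2a5, and the interaction p was at least 0.726. Cth (-0.78), Rps6ka1 (1.25), Me1 (1.02) and Apoa4 (1.28) also had 12-month logFC of the same sign with a p below 0.05. The macrophage markers had a 12-month median of 1.37 with 10 of 12 at p below 0.05, and 0 of the 12 had an interaction p below 0.05. Interferon response genes had the most members of any list with an interaction p below 0.05. Their median was 1.10 after 12 months, where 27 of 32 were higher at p below 0.05, and 15 of 32 had such an interaction p.

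**Figure D5:**
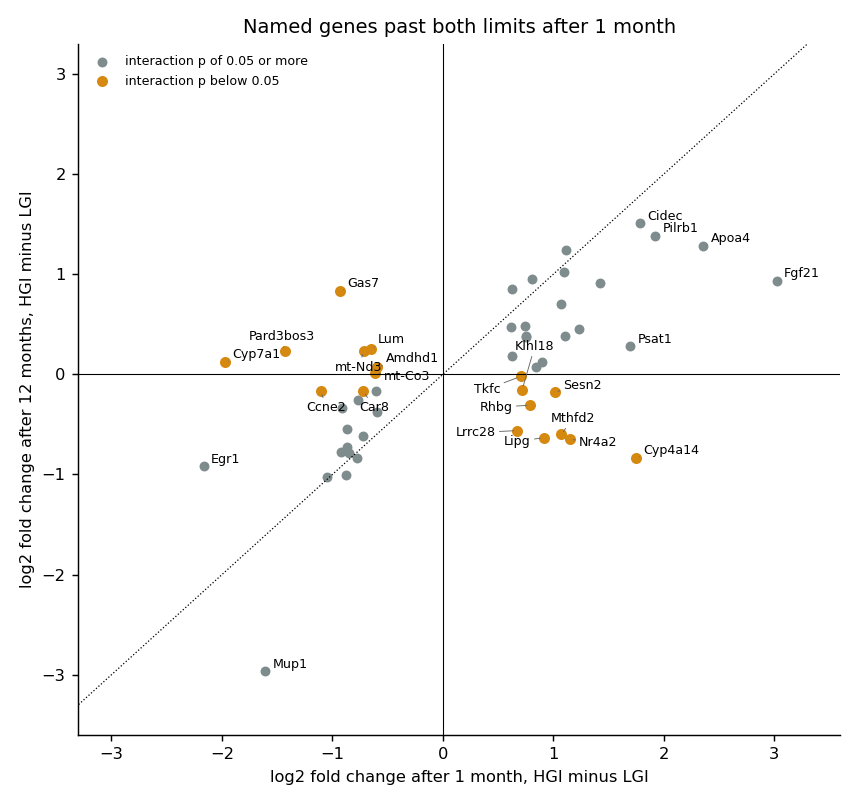
Log2 fold change of HGI over LGI after 1 month (x axis) and after 12 months (y axis) for the 52 named genes past both limits after 1 month, orange where the interaction had an unadjusted p below 0.05. Points on the dotted line have equal values, Cyp7a1 (-1.97 and 0.12) and Gas7 (-0.93 and 0.83) lie away from it, and Mup1 (-1.61 and -2.96) is the lowest point.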

How the data were processed

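Liver and retina of male C57BL/6J mice were sequenced (TruSeq stranded mRNA, paired reads of 101 bases), and only the liver gene table was used here. Per the study's methods and the submitters' processing notes, transcript abundances came from kallisto on an Ensembl annotation of GRCm39 and were summed per gene by tximport. The deposited liver table holds these estimated counts without rounding or normalization. A deposited table of normalized signal per gene, made by the authors in edgeR and limma, served here only for which genes it holds. It lacks 231 genes over 1 CPM, which were not tested. The study's methods describe a removal of retinal genes, but fewer than these, and why the others are absent was not tested. Transcript and retina tables were not used. The strand setting of the counting is not given in the sources used here. Symbols were matched by Ensembl identifier for 48845 of 49398 genes.

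Counts were rounded and fitted in R 4.3.3 with limma 3.58.1 (voom) and TMM factors of edgeR 4.0.16, as 1 model of the 4 liver groups (14 livers, 10 residual degrees of freedom). Tests were limma's moderated tests, two-sided, with Benjamini-Hochberg adjustment over 11537 genes, and p-values measure the spread between single mice. The script was tested on simulated data. Depth was 11.3 to 44.9 M counts per liver.

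Genes were named by a rule. In each direction these were the 10 genes with the smallest p among those past the limits without overlap of the diets, passing over unnamed gene models. To these came preset anchor genes of each list, and up to 4 members of a list past the limits. Some genes that the rule names are not reported here. Members, lists and rule were chosen with earlier results of these data known. Lists were described by counts and medians without a set test. Alternatives were DESeq2 1.42.0, the quasi-likelihood test of edgeR, size factors of DESeq2 within limma, other limits on expression (none, or a mean of 5 CPM), 1-month livers alone, sample quality weights, counts thinned to 11.3 M per liver, and leaving out each liver. Shared read-length windows were counted on GENCODE M21 transcripts.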

Additional observations from a re-analysis of the deposited data

Results flagged for a closer look

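In LGI livers, each of 118 named genes and 48 list levels was checked for a replicate far from the other 3 by Dixon's test, and 9 were found, where chance flags about 1 in 20 groups. HGI groups of 3 were not checked. Cyp1a2 was at 335 CPM in LGI replicate 33 and Egr1 at 14.6 CPM in the same liver, and the level of the sinusoidal endothelial markers was lowest there (mean log2 CPM of 3.27). In LGI replicate 35, Gpam, of triglyceride synthesis, stood at 357 CPM, Tat, of tyrosine breakdown, at 1020 CPM and Cyp17a1, a steroid hydroxylase, at 32.6 CPM, each above the other LGI livers. In LGI replicate 36, Acmsd was low at 25.8 CPM and the neutrophil markers were high (mean log2 CPM of -0.62). Tdo2, which starts tryptophan breakdown, was highest in LGI replicate 34, at 2800 CPM.

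For 25 of the 118 named genes the diet difference differed between the feeding lengths at an unadjusted p below 0.05 of limma's interaction, with 0 genes at an adjusted p below 0.05. Over all genes tested the share at that p was 3.99%. Many of the named genes were chosen for their 1-month difference, which is part of the interaction, so that their count cannot be read against that share. Values here are the 1-month logFC minus the 12-month logFC. Among leading genes it was 1.24 for Lrrc28 (p of 0.000121), 0.87 for Klhl18 (p of 0.00602), -1.76 for Gas7 (p of 4.76e-05), -1.67 for Pard3bos3 (p of 0.006), -2.09 for Cyp7a1 (p of 0.00975), -0.93 for Ccne2 (p of 0.0232) and -0.55 for Car8 (p of 0.0394). Other higher genes past the limits after 1 month had positive values, namely Cyp4a14 (2.58), Nr4a2 (1.8), Mthfd2 (1.67), Lipg (1.55), Sesn2 (1.19), Rhbg (1.10) and Tkfc (0.73). Lower genes past the limits had negative values, namely mt-Nd3 (-0.95), Lum (-0.91), Amdhd1 (-0.67) and mt-Co3 (-0.63). Of genes not past the limits after 1 month, the value was 1.53 for Tsc22d3, a glucocorticoid target, 1.13 for Txnip, 0.64 for Mat1a, which makes S-adenosylmethionine, and -0.61 for Hal. It was -1.52 for Isg15, an interferon-induced modifier, -1.29 for Ppp1r3c, a glycogen-targeting subunit, and -1.14 for cyclin D1 (Ccnd1).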

How the results depend on the processing

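No paired analysis was possible because no replicate number occurs in both diets. The count of 346 genes past the limits was 185 (125 higher, 60 lower) at a mean of at least 5 CPM and 895 (574 higher, 321 lower) without a limit on expression, and between 274 and 489 under the other alternatives listed with the methods. Without 1 liver it was between 213 (without LGI replicate 34) and 464 (without LGI replicate 35), and 221 without HGI replicate 39. These fits gave 128 to 283 higher genes (129 without LGI replicate 34 and 128 without HGI replicate 39) and 84 to 181 lower genes. At an adjusted p below 0.05, DESeq2 gave 4 genes and every other fit 0. At an unadjusted p below 0.05, 619 genes became 1167 without a limit on expression, 963 with sample quality weights and between 325 and 698 without 1 liver. The interaction count of 406 was 1110 without a limit on expression, 1189 with sample quality weights and between 282 and 484 without 1 liver. The cause of these shifts was not tested.

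Of 52 named genes past the limits, 0 changed sign in any alternative run, 21 kept both limits in each fit without 1 liver and 31 lost one in at least 1 of them. Of 66 named genes not past the limits, 20 changed sign in at least 1 alternative. By setting, logFC of changed sign were, with DESeq2, Pck1 0.017, Gys2 -0.01, Nqo1 0.17. With edgeR they were Pck1 0.019, Gys2 -0.0099, Nqo1 0.15. Without a limit on expression they were Gys2 -0.021, Hspa5 -0.016. With sample quality weights they were Cbs -0.0033, Tat -0.0203, Sds -0.039, Atf4 0.051, Isg15 -0.008. With thinned counts they were Atf4 0.008, Nfkbia 0.034, Col1a1 0.14. Across fits without 1 liver, logFC ranges that crossed 0 were Pck1 -0.27 to 0.26, Gys2 -0.20 to 0.13, Cbs -0.10 to 0.28, Gclc -0.034 to 0.22, Nqo1 -0.29 to 0.49, Tat -0.018 to 0.29, Sds -0.11 to 0.39, Nr1d1 -0.35 to 0.22, Tsc22d3 -0.021 to 0.55, Hspa5 -0.091 to 0.12, Atf4 -0.18 to 0.087, Saa1 -0.025 to 0.24, Nfkbia -0.26 to 0.069, Isg15 -0.18 to 0.53, Col1a1 -0.59 to 0.27, Col3a1 -0.50 to 0.22, Ccnd1 -0.41 to 0.14, Glul -0.16 to 0.025, Lgr5 -0.41 to 0.0404, Fos -0.85 to 0.20. Of 43 lists with at least 5 tested genes, the median of 15 changed sign in at least 1 alternative. These were apolipoproteins, lipoprotein assembly, cholesterol synthesis, gluconeogenesis, glutathione, female-biased, glucocorticoid, integrated stress, interferon, extracellular matrix, tricarboxylic acid cycle, immediate early and cytosolic ribosomal protein genes, and endothelial and stellate markers. Depth differed between the diets (medians of 37.8 M and 19.1 M), and thinning to equal totals gave 274 genes.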

Other observations

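Several genes that passed the limits in each fit without 1 liver belong to no list, and were chosen after their values were seen. Mfsd2a, a transporter of lysophosphatidylcholine, was at 21.4, 12.8, 52.3 and 27.9 CPM in LGI and 52.9, 61.3 and 98.9 CPM in HGI livers (logFC 1.46, SE 0.47, p of 0.0073 from limma). LGI replicate 35 nearly reached HGI replicate 38. Vnn1, a pantetheinase of the coenzyme A cycle, was at 24.6, 39.7, 41.0 and 109.6 CPM and 127, 85.4 and 98.6 CPM, and LGI replicate 36 lay within the HGI range (logFC 1.19, SE 0.36, p of 0.00535). Slc25a30, a mitochondrial carrier, was at 30.5, 46.5, 18.2 and 26.9 CPM and 89.6, 35.5 and 83.1 CPM, with HGI replicate 39 below the highest LGI liver (logFC 1.14, SE 0.35, p of 0.00519). After 12 months the logFC of these genes were 0.12, 0.07 and -0.30 (interaction p of 0.0593, 0.0467 and 0.0103).

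HGI replicate 38, the HGI liver with the lowest level of macrophage markers, was the highest of the 7 livers for a pair of cytoskeleton and adhesion genes. Tubb2a, a beta-tubulin, was at 10.4, 7.01, 10.2 and 9.59 CPM in LGI and 48.5, 17.3 and 22.8 CPM in HGI livers (logFC 1.5, SE 0.41, p of 0.00252). Of its read-length windows, 36.7% occur in another gene. Lgals1, a galectin, was at 4.06, 1.94, 5.40 and 5.55 CPM and 15.8, 6.80 and 9.32 CPM (logFC 1.35, SE 0.38, p of 0.00309). Both were without overlap of the diets.

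Among lower genes, Nat8, an acetyltransferase of cysteine conjugates, was at 14.5, 17.1, 14.6 and 16.6 CPM in LGI and 10.1, 8.49 and 7.68 CPM in HGI livers, without overlap (logFC -0.86, SE 0.24, p of 0.00284), and its 12-month logFC was -0.61.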
